A study of Mus musculus with 10 samples.

Results

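The interferon-inducible GTPases described here are Irgm1, Irgm2, Igtp, Iigp1, Ifi47, Gbp2, Gbp3 and Gbp7. They were followed in the hippocampus of Dp1Yey mice, a mouse model of Down syndrome. The members were chosen by gene symbol, and a gene was measured where a probe set was annotated to its symbol alone. By this rule 4 of the 8 members were measured (Irgm1, Iigp1, Gbp3 and Gbp7), among 19938 genes in all. Irgm2 and Igtp shared a probe set with each other, Ifi47 shared 1 with Olfr56, and Gbp2 shared 1 with Gbp2b, so none of these 4 has a value of its own. None of the 8 genes lies in the duplicated interval. All 8 are present in the normal 2 copies in Dp1Yey and control mice alike.

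RNA came from whole hippocampi, left and right together, of male mice aged 16 weeks, with 1 array per mouse. The 5 Dp1Yey animals have the stretch of chromosome 16 between Lipi and Zbtb21 duplicated, the part that matches human chromosome 21, and so hold 3 copies of every gene inside it. They were set against 5 control littermates with 2 copies, and the labels give a C57BL/6N background to both groups. The duplication holds 143 measured genes, among them 4 receptor chains for interferons and interleukin-10, so no difference between the groups can be assigned to a single gene of the interval. A hippocampus mixes many cell types, and in such bulk RNA a change in the number of cells of a type and a change of RNA per cell cannot be told apart.

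Interferon gamma is a cytokine made mainly by T cells and natural killer cells. It binds a receptor built of a ligand-binding chain, IFNGR1, and a signalling chain, IFNGR2, and the kinases JAK1 and JAK2 at the receptor then switch on transcription factors that bind GAS elements, while factors of the IRF family bind interferon-stimulated response elements (ISRE). The type I interferons act through IFNAR1 and IFNAR2 and end mostly at ISRE. The members described here belong to 2 families of the GTPases induced in this way in the mouse. The immunity-related GTPases (IRG) hold regulators that sit on the cell's own membranes, among them Irgm1, Irgm2 and Igtp, and effectors such as Iigp1 and Ifi47 that coat the vacuoles of parasites and break them open. The guanylate-binding proteins (GBP), among them Gbp2, Gbp3 and Gbp7, gather on vacuoles and bacteria and take part in autophagy and in inflammasome activation. In brain, microglia and endothelial cells are among the cells that switch them on under interferon.

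The promoters of the members are shown first, because 6 of the 7 members with a promoter window held a matching response element. RefSeq promoter windows on GRCm38.p6 (mm10), which run from 250 bases before the annotated start to 50 after it, were at hand for 7 of the 8 members, the exception being Iigp1. They were searched on both strands for the ISRE letters GAAANNGAAA and for the GAS letters TTCNNNGAA, which read the same on either strand. Of 32851 promoters in the mouse, 3.44% held the ISRE letters and 8.3% held the GAS letters. Counted by gene, as the members are, with a match at any start, the shares were 3.99% and 9.55% of 27025 genes. Among the members 6 of 7 held the ISRE letters and 3 of 7 the GAS letters (Irgm2, Igtp and Gbp7), and Ifi47 held neither. A window of 50 bases around each ISRE match follows, 5′ to 3′ on the strand of the gene, with the match in capitals. The TTTC form in Gbp2, Gbp3 and Gbp7 is the same element on the opposite strand.
Irgm1 promoter, chr11:48871418-48871467, minus strand: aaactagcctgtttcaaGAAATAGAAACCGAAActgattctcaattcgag
Gbp3 promoter, chr3:142559982-142560031, plus strand: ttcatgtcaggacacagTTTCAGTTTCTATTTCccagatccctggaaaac
Gbp7 promoter, chr3:142530263-142530312, plus strand: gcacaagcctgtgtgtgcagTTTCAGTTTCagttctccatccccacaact
Gbp2 promoter, chr3:142620584-142620633, plus strand: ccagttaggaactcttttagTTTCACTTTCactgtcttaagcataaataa
Irgm2 promoter, chr11:58214893-58214942, plus strand: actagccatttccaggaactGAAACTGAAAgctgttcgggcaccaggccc
Igtp promoter, chr11:58199502-58199551, plus strand: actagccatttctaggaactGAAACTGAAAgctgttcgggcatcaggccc

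The matches lay close before the start. With the start base counted as 0, they covered -30 to -15 in Irgm1, -45 to -30 in Gbp3, -53 to -44 in Gbp7, -59 to -50 in Gbp2, -64 to -55 in Irgm2 and -34 to -25 in Igtp. A second annotated start of Gbp3 had no match in its window. In Irgm1 and Gbp3 the element was longer than searched for, with 3 GAAA units at the same spacing and thus 2 overlapping ISRE matches. Read on the strand of the GAAA units these runs were GAAATAGAAACCGAAA in Irgm1 and GAAATAGAAACTGAAA in Gbp3, 16 bases of which 15 were the same and 1 differed (C12T, with positions counted from 1 at the 5′ end, Irgm1 first and Gbp3 second). This longer form was picked after the sequences had been read, and 0.116% of all promoters held it. The windows of Irgm2 and Igtp were the same at 48 of 50 bases and differed by C13T and C43T (Irgm2 first, Igtp second). These are the pair of genes that the array measured with a shared probe set. A match to these letters is a description of the sequence and no proof of a bound factor.

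**Figure D1:**
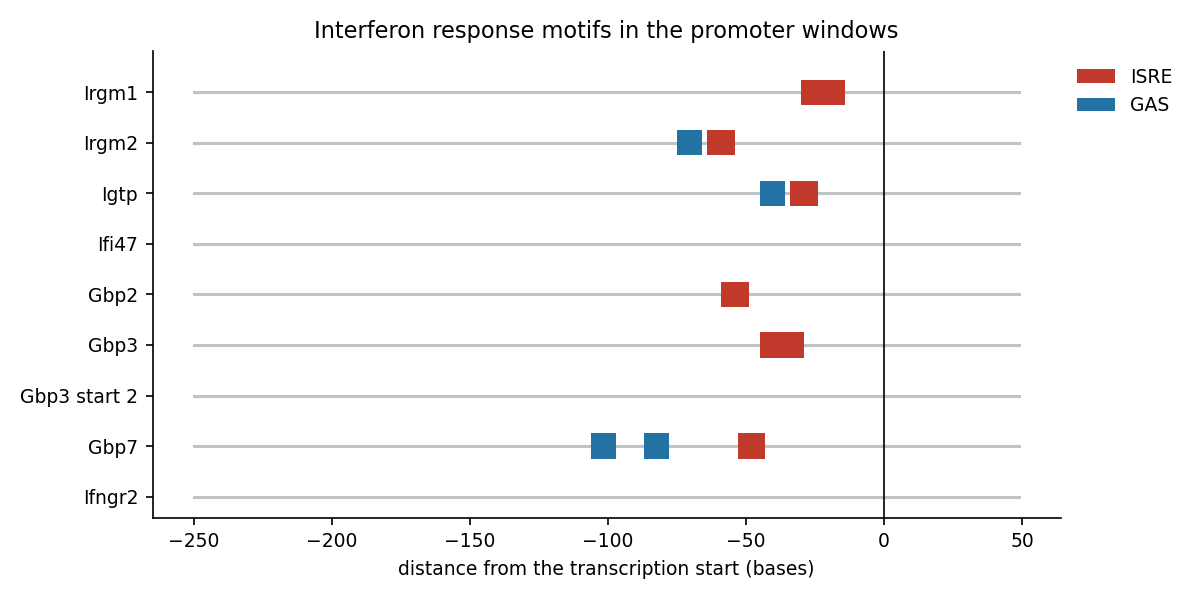
Position of the ISRE matches (red) and GAS matches (blue) in the promoter windows of 7 members and of Ifngr2; the horizontal axis gives the distance from the annotated start in bases and each grey line is a window. The ISRE matches of these 6 genes lie between -64 and -15, and the windows of Ifi47, of the second Gbp3 start and of Ifngr2 hold no match to either motif.

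Expression is given as the deposited log2 value of robust multi-array average (RMA), in which a difference of 1 is a doubling. Every difference is Dp1Yey minus control, with its 95% confidence interval from limma and a p adjusted across the 19938 genes. A call means an adjusted p under 0.05. The background floor was put at 5.44, a level that 90 percent of 1027 olfactory receptor genes, which the brain hardly uses, did not reach. Levels of different genes come from different probe sets and were not compared.

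Irgm1, which anchors to the membranes of the cell and holds the effector GTPases in check, was the member with the firmest difference. Its probe set read 7.08, 6.98, 7.08, 7.03 and 7.13 in the 5 Dp1Yey mice and 6.76, 6.39, 6.72, 6.65 and 6.78 in the 5 control mice. The lowest Dp1Yey mouse stood above the highest control mouse, and the control mice were spread more widely, with replicate 2 lowest. The mean was 7.06 ± 0.05 for the Dp1Yey mice and 6.66 ± 0.16 for the control mice (SD, n = 5 each). Irgm1 rose by 0.40 (0.26 to 0.54), which is 1.32-fold (adjusted p = 0.0166 by limma). The call was lost without Dp1Yey replicate 1 (adjusted p = 0.0513), without Dp1Yey replicate 3 (0.0558) or without control replicate 4 (0.0557), while the difference then stayed between 0.39 and 0.40.

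Gbp3, a guanylate-binding protein that in mice gathers on the vacuoles of Toxoplasma, read 6.59, 6.73, 6.83, 6.71 and 6.82 in Dp1Yey mice, against 6.53, 6.41, 6.59, 6.37 and 6.52 in control mice. The groups touched but did not overlap, since Dp1Yey replicate 1 lay only just above control replicate 3. The difference was 0.25 (0.13 to 0.37), or 1.19-fold, and missed the threshold (adjusted p = 0.0564 by limma). Without Dp1Yey replicate 1 it passed (adjusted p = 0.0377), and likewise without control replicate 3 (0.0428).

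Gbp7, a guanylate-binding protein linked in mice to the oxidative burst of macrophages, read 6.71, 6.73, 6.98, 6.70 and 6.73 in Dp1Yey mice and 6.60, 6.60, 6.66, 6.50 and 6.69 in control mice. Dp1Yey replicate 3 stood apart from the other four, which lay close to the highest control mouse. The difference was 0.16 (0.04 to 0.28), or 1.12-fold, and was not called (adjusted p = 0.173 by limma), with or without that mouse. Gbp3 and Gbp7 are next to each other on chromosome 3 and near-identical copies are common in this cluster, so a share of signal from other family members at their probe sets was not tested.

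Iigp1, an effector that inserts into the vacuole membrane of Toxoplasma, was not measured above background. It read 5.09, 5.05, 5.06, 4.96 and 5.02 in Dp1Yey mice and 4.99, 4.94, 5.01, 4.86 and 5.09 in control mice, all below the floor. The groups overlapped, and the difference of 0.06 had an interval of -0.03 to 0.16 (adjusted p = 0.443 by limma).

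**Figure D2:**
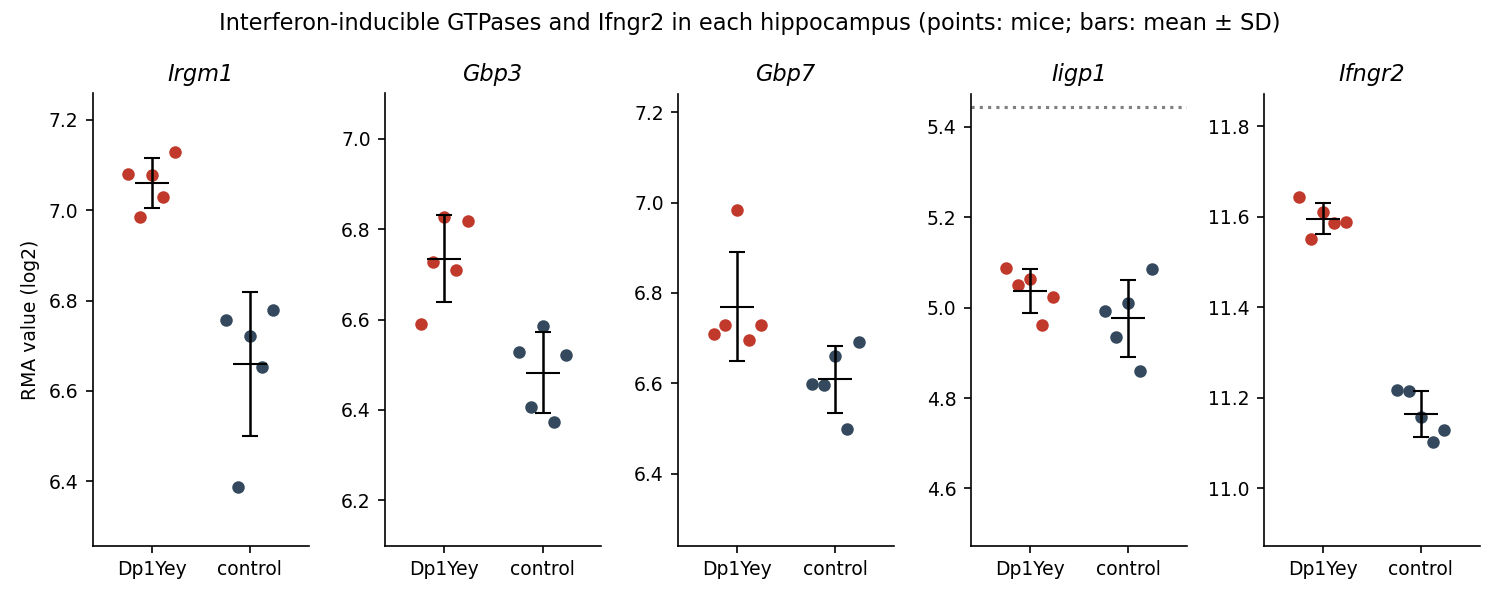
RMA log2 value of Irgm1, Gbp3, Gbp7, Iigp1 and Ifngr2 in each mouse, with Dp1Yey mice in red and control mice in blue; each point is a mouse, the bars give the mean ± SD (n = 5 each), and the dotted line in the Iigp1 panel is the background floor at 5.44. All panels span the same range of log2 units, each at its own level. The groups do not overlap for Irgm1, Gbp3, Gbp7 and Ifngr2.

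Over the 4 measured members, 4 of 4 differences were positive, as were 42.1% of the differences of all genes. Their median was 0.21, beside -0.015 for all genes. Of the 4, 1 was called (Irgm1), where 0.797% of all genes were called and 0.687% were called higher. At an unadjusted p under 0.05, 3 of 4 were higher (Irgm1, Gbp3 and Gbp7), where 8.75% of all genes were. In the same 3 genes the groups did not overlap, which held for 2.4% of all genes with Dp1Yey higher. For each of these 3 the exact two-sided permutation test over all assignments of 5 of the 10 mice gave p = 0.00794. That is the smallest p that 5 against 5 can give and follows from the lack of overlap, so it adds nothing to it. For Iigp1 the same permutation test gave p = 0.198. By a rank statistic over all pairs of a Dp1Yey with a control array, rewritten after that of the study, 2 of 4 were higher (Irgm1 and Gbp3), where 2.46% of all genes were higher and 0.993% lower. Gbp3 and Gbp7 are neighbours, and interferon is known to induce all of the members, so they are not independent of each other.

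The same rule was applied to 16 further interferon-inducible GTPases, 9 of which had a probe set of their own. Of the 9, 0 were called by limma, 0 had an unadjusted p under 0.05, and 0 were picked by the rank statistic. Their median difference was 0.04, within a range of -0.10 to 0.07. Only Gbp4, Gbp9 and Gm12250 lay above the floor. Gbp4 read 6.03, 6.08, 6.17, 6.12 and 6.12 in Dp1Yey mice and 6.06, 6.09, 6.10, 5.95 and 5.99 in control mice, and its difference of 0.07 had an interval of -0.02 to 0.15. Gbp9 differed by 0.05 (-0.04 to 0.13) and Gm12250, another IRG, by 0.04 (-0.04 to 0.11). Mx1 and Mx2, dynamin-like GTPases that block viruses, lie inside the duplication and are present in 3 copies, and at 0.01 each their differences were within the spread of mice, with both genes below the floor. Whether the members differ from these 9 genes was not tested.

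None of the nearest measured genes beside Irgm1 and the Gbp pair was called. Gbp5 and Gbp2b, the nearest measured genes on either side of the Gbp7 and Gbp3 pair, differed by -0.10 (-0.26 to 0.07) and -0.02 (-0.09 to 0.05), both below the floor. Trim7 and Gm12185, on either side of Irgm1, differed by -0.05 and 0.03, likewise below the floor.

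The comparison was then set beside the receptor chain carried in 3 copies. Ifngr2 read 11.64, 11.55, 11.61, 11.59 and 11.59 in Dp1Yey mice and 11.22, 11.21, 11.16, 11.10 and 11.13 in control mice. The groups were far apart with little spread in either. Ifngr2 rose by 0.43 (0.36 to 0.51), or 1.35-fold (adjusted p = 9.07e-05 by limma), an interval that lies below 0.585, the log2 of 1.5, which is the ratio of 3 copies to 2. Irgm1, with 2 copies in both groups, thus differed by 0.40 on the log2 scale where the receptor chain differed by 0.43. Within the Dp1Yey group, replicate 2 was lowest for Ifngr2 and lowest for Irgm1, but the highest was replicate 1 for Ifngr2 and replicate 5 for Irgm1. Within the control group replicate 2 was among the highest for Ifngr2 and lowest for Irgm1. With the group means removed, Pearson's r with Ifngr2 over the 10 arrays was -0.204 for Irgm1, -0.07 for Gbp3, 0.158 for Gbp7 and 0.198 for Iigp1, given as a description. A correlation without that step would restate the difference in copy number.

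Of the 7 receptor chains measured, 5 were called higher and 0 lower, and the rank statistic picked 6 as higher, Ifngr1 being the sixth. Among all genes 0.687% were called higher and 2.46% were higher by the rank statistic. Ifngr2, Ifnar1, Ifnar2 and Il10rb lie inside the duplication, where 60 of 143 measured genes were called in either direction. Ifngr1, the ligand-binding partner of Ifngr2, lies on another chromosome. It read 8.93, 8.90, 9.04, 8.93 and 8.78 in Dp1Yey mice and 8.65, 8.50, 8.73, 8.69 and 8.80 in control mice. Dp1Yey replicate 5 lay below control replicate 5, and the difference of 0.24 (0.11 to 0.37) was not called (adjusted p = 0.0791 by limma). Ifnar1, Ifnar2 and Il10rb, all in 3 copies, rose by 0.58, 0.87 and 0.63 (adjusted p of 5.21e-05, 0.000569 and 0.000995 by limma). Il10ra, the ligand-binding chain for interleukin-10 and present in 2 copies, rose by 0.19 (0.11 to 0.26, adjusted p = 0.0278), a call that was lost in 10 of 20 other fits. Ifnlr1 differed by -0.09 (-0.21 to 0.03).

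**Figure D3:**
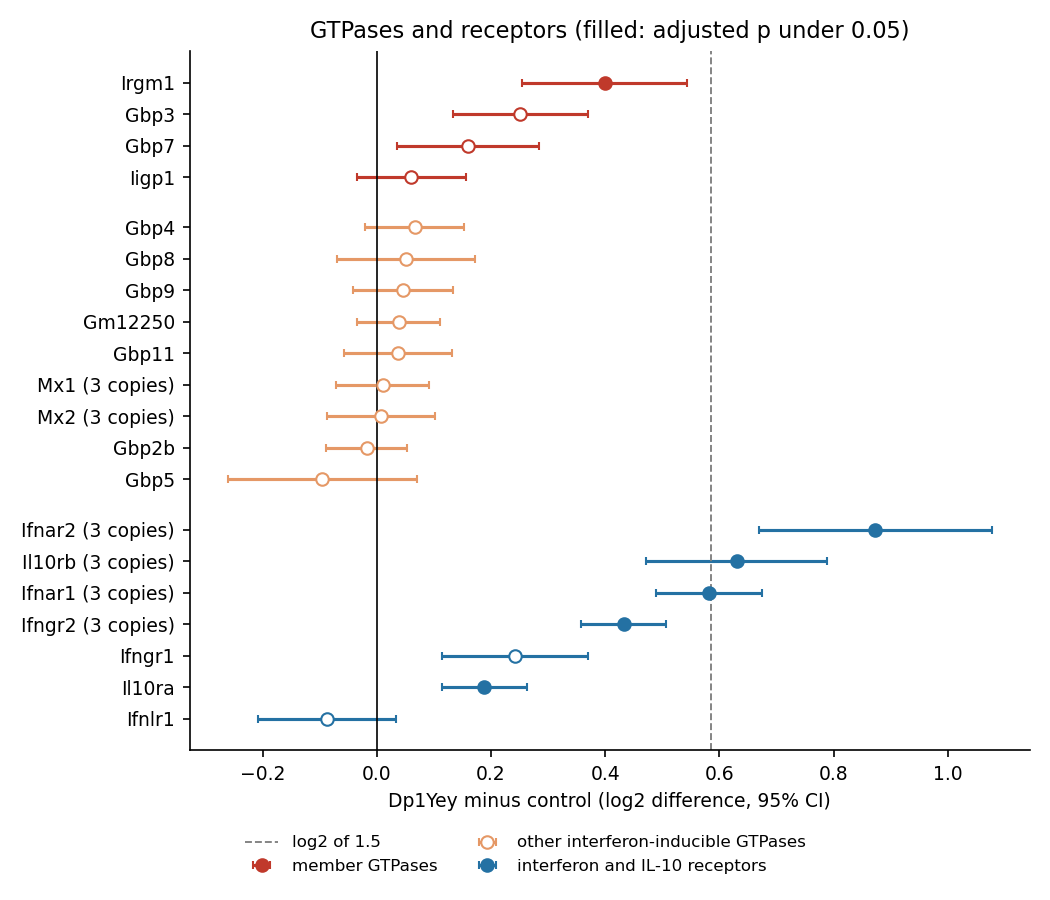
Log2 difference, Dp1Yey minus control, with its 95% confidence interval, for the 4 measured members, the 9 other interferon-inducible GTPases and 7 receptor chains; filled points passed an adjusted p under 0.05 and the dashed line is the log2 of 1.5. Irgm1 at 0.40 is the only filled point among the 13 GTPases, and the genes present in 3 copies are marked.

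The ligand itself was not called. Ifng read 5.52, 5.65, 5.63, 5.63 and 5.62 in Dp1Yey mice and 5.72, 5.69, 5.61, 5.60 and 5.61 in control mice, a difference of -0.04 (-0.12 to 0.04) at a level just above the floor. Of 8 measured ligands and inducers 0 were called by limma. At an unadjusted p under 0.05 there was 1 on either side, where 8.75% of all genes were higher and 10.8% lower. The rank statistic picked 1 (Il18, higher), where 2.46% of all genes were higher. The pair was Il18, a cytokine that induces interferon gamma, at 0.24 (adjusted p = 0.0763), and Il27 at -0.15 (adjusted p = 0.212).

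Genes that carry the signal from the receptor to the GTPases fell on both sides of control. Of 11 measured, 0 were called by limma, 1 lay higher and 2 lay lower at an unadjusted p under 0.05, and the rank statistic picked 1 (Nlrc5, lower). Shares over all genes at that p were 8.75% higher and 10.8% lower, with 0.993% lower by the rank statistic. The kinases Jak1 and Jak2 differed by -0.04 (-0.11 to 0.04) and 0.02 (-0.10 to 0.15). Irf1 and Irf8, transcription factors that interferon gamma induces and that bind ISRE, differed by -0.09 each. Irf9, the DNA-binding part of the factor that type I interferons form, read 6.99, 6.92, 6.95, 7.02 and 7.28 in Dp1Yey mice against 6.88, 6.73, 6.84, 6.68 and 6.85 in control mice, without overlap (0.23, adjusted p = 0.109). Nlrc5 and Ciita, the regulators of the class I and class II antigen presentation genes, lay at -0.26 (adjusted p = 0.171) and -0.17 (adjusted p = 0.144). The value of Nlrc5 is that of the brightest of its 19 probe sets.

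Inhibitors of the pathway fell on both sides as well, with 0 of 10 called by limma, 2 lying higher and 2 lying lower at an unadjusted p under 0.05, and 2 picked by the rank statistic (Usp18 higher, Socs3 lower). The shares over all genes were 8.75% higher and 10.8% lower at that p, and 2.46% higher and 0.993% lower by the rank statistic. Socs3, which blocks JAK signalling and is itself induced by cytokines, read 6.65, 6.65, 6.84, 6.74 and 6.81 in Dp1Yey mice and 6.98, 7.10, 6.82, 7.05 and 7.04 in control mice. Control replicate 3 alone overlapped the Dp1Yey mice, and the difference of -0.26 (-0.38 to -0.14) was not called (adjusted p = 0.0564). Usp18, which blocks the type I receptor, lay at 0.27 (adjusted p = 0.145) and Ptpn2, a phosphatase acting on JAK1, at 0.14 (adjusted p = 0.0943).

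Targets of the interferons other than GTPases were counted in 2 lists. Of 20 measured interferon gamma targets, 12 lay above control and 0 were called by limma. At an unadjusted p under 0.05, 2 lay higher and 1 lay lower, the rank statistic picked 3 (B2m, Psme2 and H2-Ab1, all higher), and the median was 0.04. The first 2 were B2m, the light chain of class I molecules, at 0.31 (adjusted p = 0.116), and Psme2, a proteasome activator subunit, at 0.26 (adjusted p = 0.0943). Of all genes, 42.1% lay above control, and 8.75% were higher and 10.8% lower at that unadjusted p. By the rank statistic 2.46% of all genes were higher. The chemokine genes Cxcl9, Cxcl10 and Cxcl11 were not called. Cxcl10, Cxcl11, Psmb8 and Ido1, a classical interferon gamma target, lay below the floor. The list averaged 6.97 to 7.12 across Dp1Yey mice and 6.96 to 7.14 across control mice, and the groups overlapped.

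Of 16 measured type I interferon targets, 16 lay above control, 12 were higher at an unadjusted p under 0.05, 7 were higher by the rank statistic and 1 was called, with a median of 0.20. The matching shares over all genes were 42.1%, 8.75%, 2.46% and, for genes called higher, 0.687%. The called gene was Trim30a, a ubiquitin ligase of innate immunity. It read 6.40, 6.52, 6.51, 6.47 and 6.65 in Dp1Yey mice, against 6.18, 6.29, 6.23, 6.15 and 6.34 in control mice, and it rose by 0.27 (adjusted p = 0.0335), a call lost in 10 of 20 other fits. Ifit3, an antiviral protein, had the widest difference of the list at 0.61 (0.31 to 0.92, adjusted p = 0.0623), with 8.51, 8.13, 8.61, 8.36 and 8.86 in Dp1Yey mice and 8.14, 7.90, 8.09, 7.51 and 7.77 in control mice. The list averaged 6.81 to 7.03 across Dp1Yey mice and 6.61 to 6.80 across control mice, without overlap. The median of the 4 GTPases (0.21) was close to that of this list and above that of the interferon gamma list, and no test was made between the lists.

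**Figure D4:**
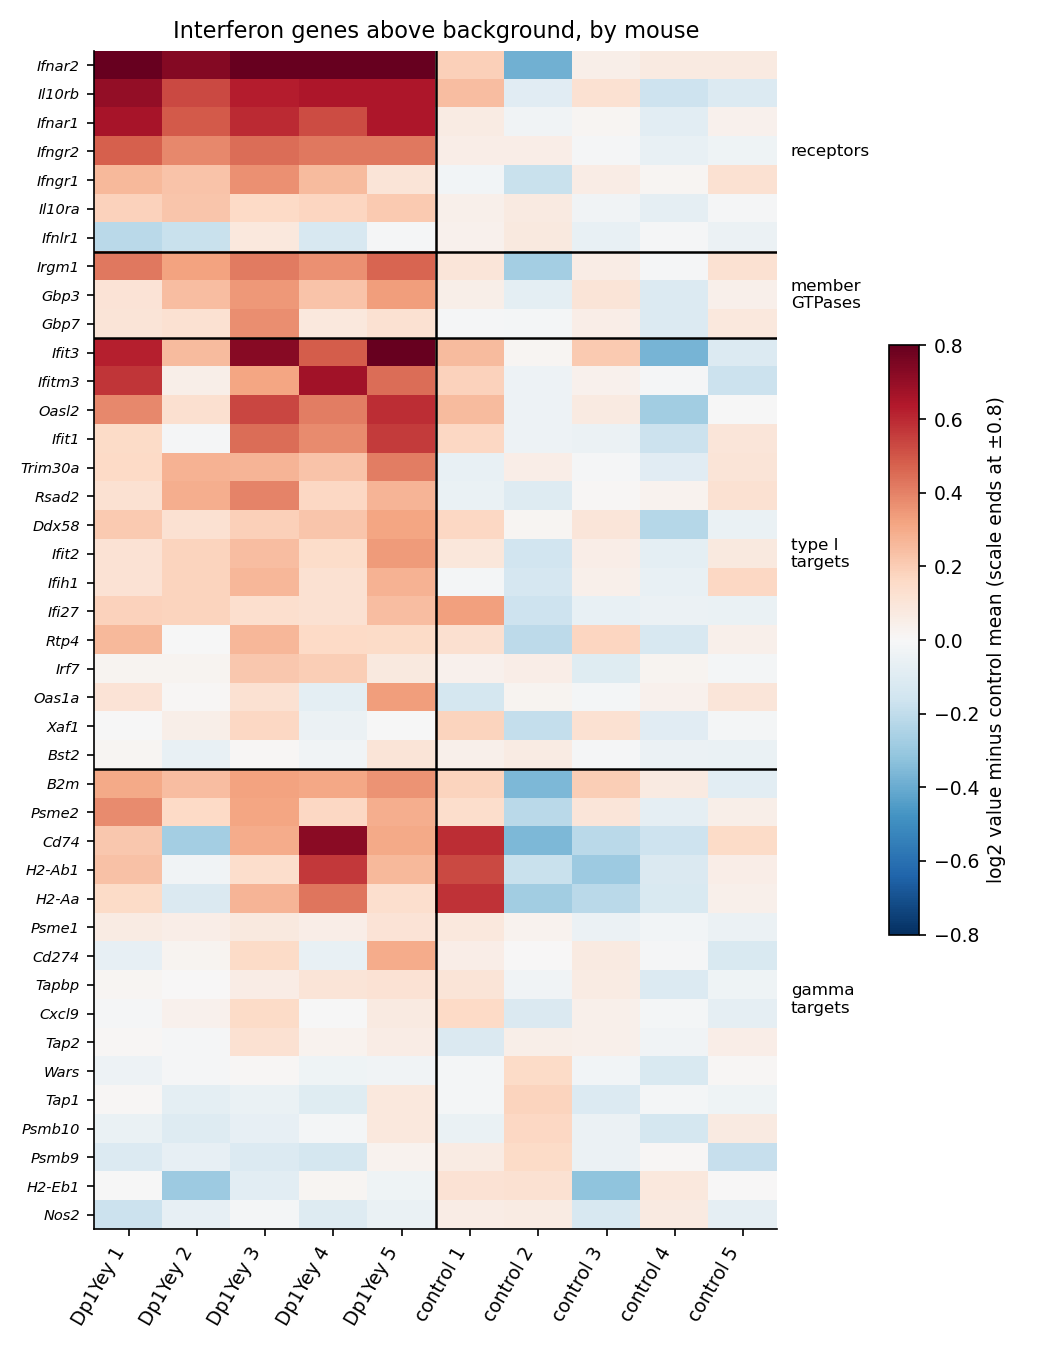
Log2 value of each mouse minus the mean of the control mice, for receptors, member GTPases, type I targets and interferon gamma targets above the background floor; columns are the 5 Dp1Yey mice, then the 5 control mice, rows are sorted by difference within each block, and the colour scale ends at ±0.8. Irgm1, Gbp3 and Gbp7 are above the control mean in every Dp1Yey mouse, and the class II genes Cd74, H2-Ab1 and H2-Aa are high in Dp1Yey replicate 4 and in control replicate 1.

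The promoter motif was also set against the differences over the whole array. Of genes above the floor, members left out, 406 held the ISRE letters, and of these 51.7% lay above control and 13.3% were higher at an unadjusted p under 0.05. Over all 12021 such genes with a promoter the shares were 47.1% and 11.3%. The letters were found in 10 of 15 type I targets with a promoter, in 5 of 5 other interferon-inducible GTPases, in 3 of 14 interferon gamma targets and in 0 of 5 receptor chains, Ifngr2 among them. The run of 3 GAAA units was carried by 20 measured genes, at any level. Of these, 12 lay above control, where 42.8% of all measured genes with a promoter did and 9.06% were higher at an unadjusted p under 0.05, and Irgm1 and Gbp3 were 2 of the 5 that were higher at an unadjusted p under 0.05, the others being Washc3 at 0.28, Vhl at 0.15 and Rbm43 at 0.08 (none called). Since the run was picked from Irgm1 and Gbp3, these were also left out, and of the 13 other carriers above the floor 8 lay above control and 3 were higher at an unadjusted p under 0.05. Of interferon genes with the same run, Oas1a lay at 0.10, Bst2 at 0.01, Trim21 at -0.01 and Socs1 at -0.12, none of them called. These genes were named after their values had been seen.

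Partners of the GTPases in autophagy and in cell-autonomous immunity were counted next. Of 15 measured, 0 were called by limma, 3 were higher at an unadjusted p under 0.05 and 0 were picked by the rank statistic, with a median of 0.06. Among all genes 8.75% were higher at that p. Map1lc3b, the LC3 protein of autophagosomes to which IRG and GBP targeting is tied, lay at 0.14 (0.06 to 0.21, adjusted p = 0.096). Atg5, needed to attach LC3 to membranes, lay at 0.14 (adjusted p = 0.243). Casp1, the inflammasome protease downstream of GBP, lay at 0.19 (adjusted p = 0.127), below the floor.

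Across mice, with the group means removed, the mean of Irgm1, Gbp3 and Gbp7 was most like Nrbp1 (Pearson r of 0.939), Ppp1r15a (0.936), Commd8 (0.935), Chpt1 (0.934) and Pacsin2 (0.917). These are the highest of 15190 genes over 10 arrays, given as a description, and all arrays share their processing. None of these 5 genes stands in the interferon lists used here, and none was called.

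The identity of the tissue and the other cell types were checked by marker genes. For comparison, 42.1% of all genes lay above control, and at an unadjusted p under 0.05 8.75% were higher and 10.8% lower. The rank statistic placed 2.46% of all genes higher and 0.993% lower, and limma called 0.687% higher. All 10 hippocampal markers lay above the floor. At an unadjusted p under 0.05, 3 of them lay higher and 1 lay lower, 0 were called by limma, and the rank statistic picked Wfs1, a gene of CA1 pyramidal cells, at 0.42 (adjusted p = 0.0533, no overlap) and Lct, a gene of granule cells, at -0.34 (adjusted p = 0.103). Of 15 measured microglia markers, 14 lay above control, 8 were higher at an unadjusted p under 0.05, 5 were higher by the rank statistic (C1qc, Tyrobp, Siglech, Laptm5 and Ly86) and 1 was called (Laptm5, a lysosomal protein of immune cells, at 0.21, adjusted p = 0.0455). That call was lost in 12 of 20 other fits. Their mean level was 8.74 to 8.81 across Dp1Yey mice and 8.52 to 8.72 across control mice, with no overlap. Siglech and Tyrobp lay at 0.26 each, C1qc at 0.25 and Ly86 at 0.23, while Tmem119 lay at 0.00 and P2ry12 at 0.08, and none of these 6 genes was called. Of 11 measured endothelial and pericyte markers, 0 were called by limma, 3 were higher at an unadjusted p under 0.05 (Slco1a4 at 0.34 with an adjusted p of 0.0586, Vtn and Tek), the rank statistic picked the same 3, and the mean levels of 8.38 to 8.57 in Dp1Yey mice and 8.28 to 8.63 in control mice overlapped. Of 11 measured T cell, natural killer cell and blood markers 7 lay at or below the floor, among them Cd3g, Nkg7, Gzma, Gzmb and Ncr1, 0 were called by limma, an unadjusted p under 0.05 was reached by Alas2 (higher) and Nkg7 (lower), and the rank statistic picked 1 (Alas2 of red cells, higher at 0.56). Of 6 border macrophage markers 3 lay at or below the floor (Mrc1, Cd163 and Pf4), and 0 were called by limma, reached an unadjusted p under 0.05 or were picked by the rank statistic. Of 8 astrocyte, 7 oligodendrocyte and 8 neuron markers 0 were called by limma, and an unadjusted p under 0.05 was reached only by the astrocyte genes Gfap at 0.10 and Fgfr3 at -0.27, while the rank statistic picked Fgfr3 and the oligodendrocyte gene Opalin. The part of microglia, endothelial cells or any other cell type in the differences of the GTPases was not tested.

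Choroid plexus, a tissue that lies beside the hippocampus in the ventricle, differed between samples. All 6 of its markers were below control, 5 of 6 at an unadjusted p under 0.05, 4 of 6 by the rank statistic and 0 called by limma, with a median of -0.58. The marker that did not reach that p was Clic6 at -0.46 (-1.18 to 0.25), which lies inside the duplication and is present in 3 copies. Among all genes 10.8% were lower at that p and 0.993% by the rank statistic. Their mean level was 7.07 to 7.78 across Dp1Yey mice and 7.30 to 8.87 across control mice, highest in control replicates 1, 4 and 5. With those 3 control arrays left out, a choice made after seeing the data, Irgm1 differed by 0.50 (adjusted p = 0.0574), Gbp3 by 0.24 (adjusted p = 0.184) and Gbp7 by 0.14 (adjusted p = 0.331), over 5 Dp1Yey and 2 control mice. The median of the 4 members was then 0.19. The interquartile range of values also differed, at 3.47 to 3.53 on Dp1Yey arrays and 3.40 to 3.51 on control arrays. With that range as a covariate the difference of Irgm1 was 0.31 and was not called (adjusted p = 0.254), and Gbp3 stayed at 0.24 (adjusted p = 0.421).

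**Figure D5:**
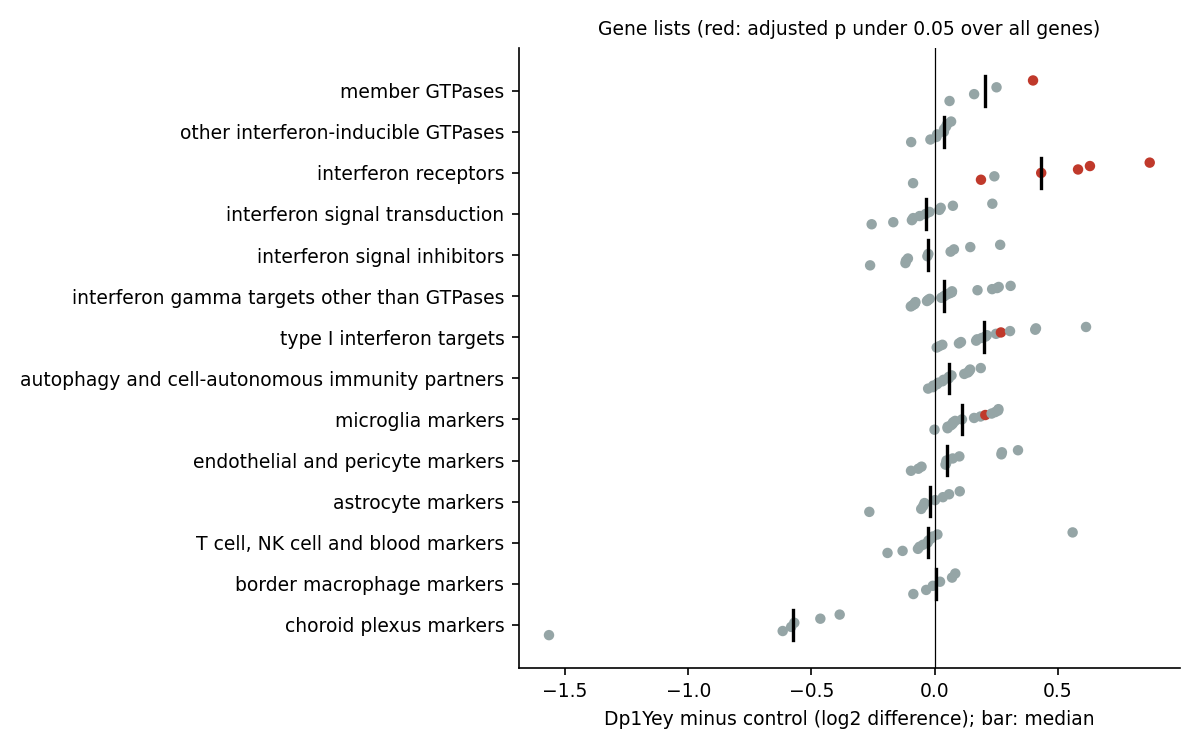
Log2 difference, Dp1Yey minus control, of each measured gene of 14 lists; each point is a gene, red points passed an adjusted p under 0.05 over all genes, and the black bar is the median of the list. The median of the member GTPases is 0.21, that of the type I targets 0.20, that of the microglia markers 0.11 and that of the choroid plexus markers -0.58.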

How the data were processed

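RNA of 10 hippocampi (5 Dp1Yey, 5 control) was hybridised to Affymetrix Mouse Gene 1.0 ST arrays. The authors deposited log2 values made by RMA (background correction, quantile normalisation, summary to probe sets), and RMA, limma and mm10 are named in the submitters' processing notes. Labels and study name different amounts of input RNA and, in part, different substrains, which was not settled. Of 35556 probe sets, 21789 had a single symbol in the platform annotation, 1621 several and 12146 none listed. A gene was represented by its brightest probe set of a single symbol. Positions and promoters came from RefSeq GRCm38.p6.

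Differences were estimated by limma 3.58.1 under R 4.3.3 (group only), with p-values adjusted by Benjamini-Hochberg over 19938 genes. Arrays give no read depth, and their number limits the precision. Members, lists and tests were chosen with earlier results of these data known. The named genes were all members and other GTPases, receptors and kinases, called members and up to the 4 of smallest p of each list, the neighbours and the 5 most alike genes. The closing section gives the alternatives. They included a rank statistic rewritten from the published description of fcros (25 pairs of arrays, trim 0.25, tails 0.025 and 0.975). The code was tested on simulated data.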

Additional observations from a re-analysis of the deposited data

Results flagged for a closer look

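Single mice stood apart from their group in 3 of 24 groups of values examined, where chance gives about 1 in 20. Gbp7 in Dp1Yey replicate 3 was 6.98, above the other Dp1Yey mice at 6.70 to 6.73. Ifnar2 in control replicate 2 was 8.66, below the other control mice at 9.09 to 9.24. Laptm5, the microglia marker, in control replicate 4 was 9.95, below the other control mice at 10.11 to 10.17.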

How the results depend on the processing

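The median difference of the members (0.21 in the report) shifted by less than the SD of 0.0902 between mice in all 20 alternative fits. It was 0.25 over the 3 members above the floor and ranged from 0.17 to 0.23 when each array was left out in turn. The number of members called (1 in the report) was 2 after a new quantile normalisation, after centring each array on its median, among genes above the floor and by the rank statistic, in each case with Gbp3 added. It was 0 with the interquartile range of each array in the model and without control replicates 1, 4 and 5 together, and from 0 to 2 when each array was left out in turn. The number of genes called (159 in the report) was 308 with median centring, 46 with the covariate, 49 without control replicates 1, 4 and 5 together, 689 by the rank statistic, and 70 to 232 when each array was left out. With the replicate number as a block (replicate block) 94 genes and 1 member were called, and Il10ra (adjusted p = 0.08 by limma) and Laptm5 (0.0942) lost their call, while Irgm1, Trim30a, Ifngr2, Ifnar1, Ifnar2 and Il10rb kept theirs. The numbers did not pair the mice, since deviations from the group means of same-numbered mice correlated from -0.33 to 0.22. No direction of a member or of the 5 called receptors reversed. Of the calls, 86.2% were higher in the report, 95.5% with median centring, 78.8% after the new quantile normalisation and 69.8% without control replicate 3. Causes of these shifts were not tested.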

Other observations

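The probe sets that hold members together with another gene were read as they stand, with p adjusted over all probe sets. The probe set shared by Gbp2 and Gbp2b was 6.31, 6.40, 6.60, 6.49 and 6.55 in Dp1Yey mice and 6.21, 6.07, 6.34, 6.31 and 6.46 in control mice, and its difference of 0.19 (0.03 to 0.36) did not pass (adjusted p = 0.233 by limma). The probe set shared by Irgm2 and Igtp was 5.71 to 5.96 in Dp1Yey mice and 5.64 to 5.90 in control mice, a difference of 0.06 (adjusted p = 0.633). The probe set shared by Ifi47 and Olfr56 was 4.79 to 4.90 in Dp1Yey mice and 4.70 to 4.91 in control mice, a difference of 0.02 (adjusted p = 0.858). None of these values can be given to a single gene.

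BC023105, the nearest measured gene to the right of Iigp1 on chromosome 18, did not overlap between the groups, at 4.51 ± 0.05 for the Dp1Yey mice and 4.36 ± 0.05 for the control mice (SD, n = 5 each). Its difference of 0.15 (0.07 to 0.23) was not called (adjusted p = 0.0773 by limma), and both levels lie below the background floor. Gm4841, on the left of Iigp1, differed by 0.05.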
